A study of Mus musculus with 6 samples.

Results

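The S100 proteins are small calcium-binding proteins of the EF-hand type, and 9 genes of the family are described here in CAD cells, a mouse catecholaminergic neuronal line. S100a1, S100a4, S100a6, S100a7a, S100a10, S100a11, S100a13, S100a16 and S100b were taken by gene symbol from a table of 24318 genes. They were chosen from the family with the differences between the groups already known, so their values are a description and are given without p-values. The siCircGigyf2 group held 3 libraries of CAD cells that had received an siRNA against circGigyf2, a circular RNA back-spliced from the Gigyf2 gene. The siNC group held 3 libraries of CAD cells that had received a control siRNA. Both groups were total RNA depleted of ribosomal RNA, and all came from 1 cell line with no other agent or genotype named in the labels. The series concerns circular RNAs in Alzheimer's disease, and this comparison asks which RNAs differ once circGigyf2 is targeted.

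Most S100 proteins work as dimers that open a hydrophobic surface when calcium binds and then hold a target protein. S100a10 is the exception, as it no longer binds calcium and stays in the open form, paired with annexin A2 at the membrane. In the nervous system S100b is best known from astrocytes, S100a6 from growth-stimulated cells and some neurons, whereas S100a8 and S100a9 are myeloid genes elsewhere. S100a7a, related to human psoriasin, is best known from skin.

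Levels are FPKM, fragment counts scaled for transcript length and library size, so they can be set side by side between genes. Per library, FPKM added up to 604881 to 624645 with the circGigyf2 siRNA and 578627 to 601552 with the control siRNA. Fragment totals are not known, but steps among low values gave relative depths of 0.802 to 0.914 for siCircGigyf2 and 0.953 to 1 for siNC, with siNC replicate 1 as 1. A gene was tested where its mean over the 6 libraries was at least 1 FPKM, which held for 11420 genes and for 7 of the 9 members. Gigyf2 averaged 21.4 ± 0.330 FPKM (SD, n = 3) in the siCircGigyf2 libraries and 23.2 ± 0.0749 FPKM in the siNC libraries, a log2 difference of -0.11 (limma adjusted p = 0.0287). Of the 6 fits with a library left out, it passed only in that without siCircGigyf2 replicate 1 (adjusted p from 0.0655 to 0.0845 in the others). The table has no value for circGigyf2 itself, and the Gigyf2 value may pool linear and circular molecules, so it is a weak check of the labels.

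Of the 15 marker genes of the catecholaminergic line, 14 passed the filter. The summed level of the 15 was 1600 to 1650 FPKM in the siCircGigyf2 libraries and 1640 to 1670 FPKM in the siNC libraries. Most of that sum was Chgb, at 979 ± 17.3 FPKM with the circGigyf2 siRNA, against 1080 ± 20.6 FPKM with the control (SD, n = 3 each). Ddc was below the filter, at 0.314 ± 0.103 FPKM with the circGigyf2 siRNA, against 0.351 ± 0.123 FPKM with the control. Th, tyrosine hydroxylase, averaged 3.28 ± 0.474 FPKM with the circGigyf2 siRNA, against 4.24 ± 0.662 FPKM with the control (SD, n = 3 each). Th was not called (limma adjusted p = 0.0659). Of the 14 tested markers 8 were called, or 57.1%, beside 38.2% of all tested genes. The 3 called higher were Tubb3 by 0.55, Slc18a1 by 0.33 and Hand2 by 0.18 on the log2 scale. The 5 called lower were Dbh (-0.37), Gata2 (-0.25), Phox2a (-0.20), Chgb (-0.14) and Chga (-0.12). Dbh passed narrowly (limma adjusted p = 0.0434), at 1.14 ± 0.194 FPKM with the circGigyf2 siRNA, against 1.77 ± 0.404 FPKM with the control. For Phox2a the groups overlapped. The part of the catecholaminergic markers in the S100 values was not tested. Of 7 astrocyte markers, Aqp4, Aldh1l1, Slc1a3 and Gja1 were listed at 0 in all 6 libraries. The astrocyte sum of 90.3 to 99.7 FPKM in the siCircGigyf2 libraries and 91.5 to 95.7 FPKM in the siNC libraries was nearly all Aldoc. Of 7 myeloid markers, Ptprc and Itgam were at 0 throughout, and the sum was 0.964 to 1.10 FPKM with the circGigyf2 siRNA, against 0.695 to 1.01 FPKM with the control. Of 6 keratinocyte markers in the table, Krt5, Krt1, Krt10, Lor and Ivl were at 0 throughout, and the sum reached at most 0.0654 FPKM with the circGigyf2 siRNA, against 0.0299 FPKM with the control. Of 8 Schwann cell and oligodendrocyte markers, Foxd3 was at 0, and the sum of 175 to 188 FPKM with the circGigyf2 siRNA, against 174 to 176 FPKM with the control, was mostly Pmp22. Of 7 fibroblast markers, Col1a2, Col3a1 and Lum were at 0, and the sum was 3.89 to 4.22 FPKM in the siCircGigyf2 libraries and 3.57 to 4.16 FPKM in the siNC libraries. Of the 2 tested, Col1a1 was called higher by 0.36 on the log2 scale (limma adjusted p = 0.0180). It averaged 1.47 ± 0.198 FPKM with the circGigyf2 siRNA, against 0.924 ± 0.116 FPKM with the control. Pdgfra was not called (-0.098, adjusted p = 0.316), though its siCircGigyf2 values were all below its siNC values.

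The genes lie in a row on mouse chromosome 3, except S100b on chromosome 10. Promoter windows of 300 bases, 250 before and 50 from the annotated start site, were taken from RefSeq on GRCm38.p6 for 8 of the 9 members, with no window for S100a10. The first windows shown are those of S100a7a and S100a6, whose log2 levels differed most between the groups among the 7 tested members. The third is that of S100a4, which lies close to S100a6 and went the other way. The fourth is that of S100a13, which starts close to S100a1 and runs the other way. Capitals in the S100a6 and S100a4 windows mark matches to the motifs named after the sequences, the S100a7a window held none, and in the S100a13 window capitals mark the 204 bases shared, as reverse complement, with the S100a1 window.
S100a7a, chr3:90654052-90654351, plus strand: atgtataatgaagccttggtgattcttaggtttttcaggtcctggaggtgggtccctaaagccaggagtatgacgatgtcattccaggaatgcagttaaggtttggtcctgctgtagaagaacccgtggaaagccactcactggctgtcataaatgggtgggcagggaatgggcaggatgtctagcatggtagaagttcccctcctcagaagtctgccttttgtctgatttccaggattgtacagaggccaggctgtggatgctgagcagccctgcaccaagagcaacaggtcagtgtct
S100a6, chr3:90612644-90612943, plus strand: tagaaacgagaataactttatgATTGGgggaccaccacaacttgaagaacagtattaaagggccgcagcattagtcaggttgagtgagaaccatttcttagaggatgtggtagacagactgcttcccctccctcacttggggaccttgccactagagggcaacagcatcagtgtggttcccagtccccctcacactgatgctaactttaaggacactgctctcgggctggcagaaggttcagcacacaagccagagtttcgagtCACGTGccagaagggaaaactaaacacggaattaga
S100a4, chr3:90603520-90603819, plus strand: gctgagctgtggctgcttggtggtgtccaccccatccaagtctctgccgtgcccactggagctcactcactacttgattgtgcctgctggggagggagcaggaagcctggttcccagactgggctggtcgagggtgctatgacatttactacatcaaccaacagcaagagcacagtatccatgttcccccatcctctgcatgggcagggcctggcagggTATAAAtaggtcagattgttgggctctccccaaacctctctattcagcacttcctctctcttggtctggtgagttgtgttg
S100a13, chr3:90514185-90514484, plus strand: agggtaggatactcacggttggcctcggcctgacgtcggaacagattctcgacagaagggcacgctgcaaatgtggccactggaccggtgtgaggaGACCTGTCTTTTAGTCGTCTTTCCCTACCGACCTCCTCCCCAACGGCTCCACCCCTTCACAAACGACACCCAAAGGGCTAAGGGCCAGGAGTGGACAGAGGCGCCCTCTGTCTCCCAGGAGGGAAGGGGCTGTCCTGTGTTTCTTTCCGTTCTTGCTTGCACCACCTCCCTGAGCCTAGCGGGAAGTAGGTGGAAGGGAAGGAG

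Short promoter motifs were searched on both strands, and no 2 matches in the members' windows overlapped. Of all 32851 windows, 13.6% held TATAAA, the core of the box of that name, 37.4% held CCAAT, bound by the factor NF-Y, and 35.7% held GGGCGG, bound by Sp1. The AP-1 type motif TGANTCA was in 7.81% of windows, the CREB motif TGACGTCA in 1.79% and the E-box CACGTG in 7.15%. The S100a4 window held TATAAA 31 bases before the start site. The S100a6 window held CCAAT, on the minus strand, at -228 and CACGTG at position 15, counted with the start site as 1, and no TATAAA. The S100a7a, S100a1 and S100a13 windows held none of the 6. The S100a11 window held 3 copies of GGGCGG, 2 copies of TGAGTCA and 1 CACGTG. The S100b window held 2 CCAAT matches, and 1 of the 2 S100a16 windows held GGGCGG and TGAATCA. No searched motif was in the windows of all members that were higher.

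S100a6 and S100a10 made up nearly all S100 RNA in these cells. Together they were 91.5%, 91.7% and 92.1% of the summed FPKM of the 9 members in the siCircGigyf2 libraries, against 91.0%, 90.9% and 91.3% in the siNC libraries. The sum itself was 625, 618 and 639 FPKM in the siCircGigyf2 libraries, against 434, 434 and 450 FPKM in the siNC libraries. Every siCircGigyf2 library was above every siNC library in that sum.

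**Figure D1:**
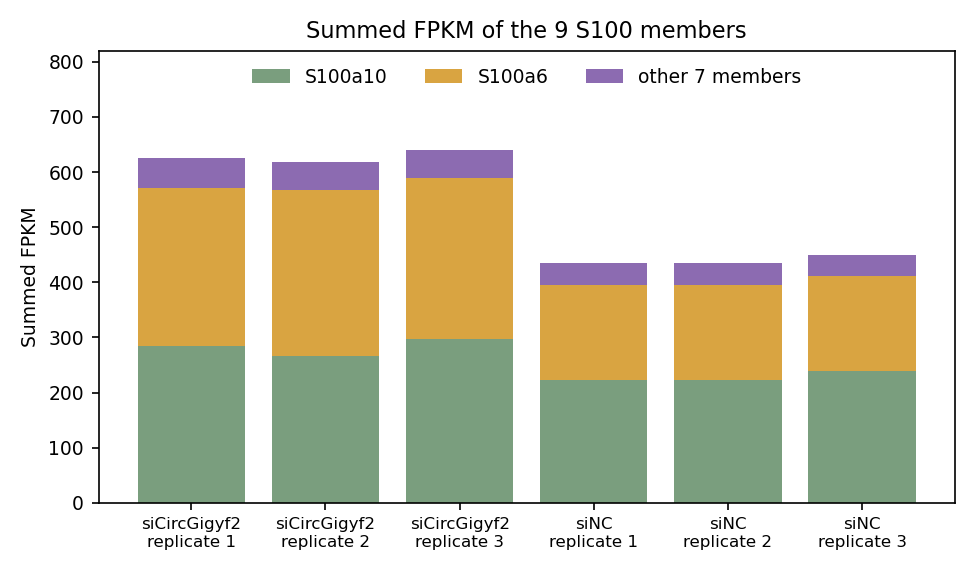
Summed FPKM of the 9 S100 members in each library, stacked as S100a10, S100a6 and the other 7 members. The siCircGigyf2 libraries on the left reach 618 to 639 FPKM and the siNC libraries on the right 434 to 450 FPKM, and the S100a6 segment is the one that differs most in height.

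The whole-table fit called 6 of the 7 tested members, 5 higher and 1 lower in the siCircGigyf2 libraries, where 38.2% of all 11420 genes were called, 19.5% higher and 18.7% lower. The groups did not overlap for the same 6 members, against 51% of all genes. Since the members were chosen with these differences known, nothing is read from those counts. The median log2 difference was 0.31 over the 7 members and 0.00035 over all tested genes. The central 95% of all tested genes lay between -0.43 and 0.43, and S100a7a, S100a6 and S100a1 were above that range. FPKM are relative to the other RNAs of a library, and in bulk RNA fewer cells with a transcript and less of it per cell cannot be told apart.

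**Figure D2:**
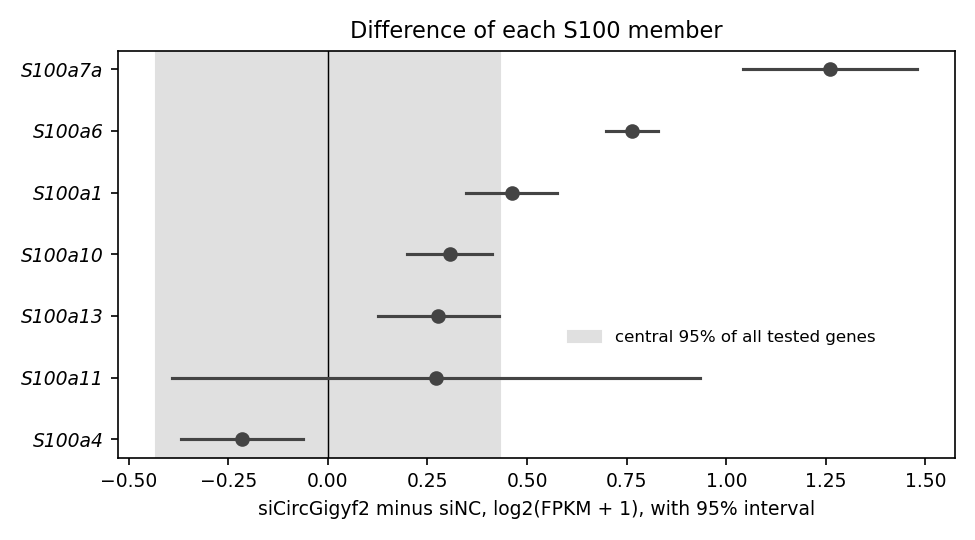
Difference between the groups for the 7 tested S100 members (siCircGigyf2 minus siNC, log2(FPKM + 1), with the 95% interval from limma), with the central 95% of all tested genes in grey. S100a7a at 1.26, S100a6 at 0.76 and S100a1 at 0.46 lie to the right of the grey band, and the interval of S100a11 spans 0.

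S100a6, also called calcyclin, binds annexins and the ubiquitin-pathway adaptor Cacybp. It had 286.6, 301.4 and 291.0 FPKM in the siCircGigyf2 libraries against 173.1, 172.3 and 171.1 FPKM in the siNC libraries. Every siCircGigyf2 library was well above the siNC libraries, which lay close together. The mean was 293 ± 7.62 FPKM with the circGigyf2 siRNA, against 172 ± 0.970 FPKM with the control (SD, n = 3 each), a ratio of 1.70 and a log2(FPKM + 1) difference of 0.76 (SE 0.029). S100a10 had 284.7, 265.4 and 297.4 FPKM in the siCircGigyf2 libraries against 222.3, 222.5 and 239.8 FPKM in the siNC libraries. The groups did not overlap, with a mean of 282.5 ± 16.1 FPKM in siCircGigyf2 cells, against 228 ± 10.1 FPKM in siNC cells, a ratio of 1.24 and a log2 difference of 0.31 (SE 0.047).

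The order of the leading pair differed between the groups. S100a6 stood at 1.01, 1.14 and 0.979 times S100a10 in the siCircGigyf2 libraries, against 0.778, 0.774 and 0.714 times in the siNC libraries. In the siNC libraries S100a10 was thus above S100a6 in all 3, and in the siCircGigyf2 libraries their ranges overlapped. S100a6 supplied 45.5% to 48.7% of the summed S100 FPKM with the circGigyf2 siRNA, against at most 39.8% with the control siRNA.

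S100a1 regulates calcium-handling proteins such as the ryanodine receptors, and S100a13 takes part in the export of the growth factor Fgf1. S100a1 had 20.6, 19.9 and 18.8 FPKM in the siCircGigyf2 libraries against 15.0, 13.9 and 13.5 FPKM in the siNC libraries. The groups did not overlap, with a ratio of means of 1.40 and a log2 difference of 0.46 (SE 0.051). S100a13 had 20.4, 20.0 and 17.6 FPKM in the siCircGigyf2 libraries against 14.5, 16.3 and 16.5 FPKM in the siNC libraries. The groups lay close but did not overlap, and the ratio of means was 1.23, with a log2 difference of 0.28 (SE 0.067). The RefSeq gene spans of S100a1 and S100a13 overlap on opposite strands, whereas GENCODE M21 lists no such overlap. The start sites behind the promoter windows run away from each other, and the capitals in the S100a13 window mark overlap of the windows, not of transcripts. Strand handling was not given in the sources used here, so fragments from the overlap of the spans cannot be assigned. The S100a1 to S100a13 ratio was 1.01, 0.996 and 1.07 in the siCircGigyf2 libraries and 1.04, 0.851 and 0.816 in the siNC libraries, which overlap.

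Among the 7 tested members, S100a7a was the one whose level differed most in proportion, from a low base. It had 4.58, 5.41 and 5.97 FPKM in the siCircGigyf2 libraries against 1.64, 1.82 and 1.44 FPKM in the siNC libraries. The groups were far apart relative to the spread within each. The mean of 5.32 ± 0.701 FPKM with the circGigyf2 siRNA, against 1.63 ± 0.192 FPKM with the control, gave a ratio of 3.26. The difference was 1.26 (SE 0.096) on the log2(FPKM + 1) scale, and 1.64 with a pseudocount of 0.1, since the pseudocount of 1 understates changes of low genes. With the circGigyf2 siRNA its range overlapped that of S100a4, whereas with the control siRNA it was below S100a4 in all 3 libraries and overlapped S100a11.

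S100a4, which binds nonmuscle myosin and is linked to cell motility, was the 1 tested member at a lower level. It had 5.14, 5.37 and 4.76 FPKM in the siCircGigyf2 libraries against 5.98, 5.67 and 6.57 FPKM in the siNC libraries. The groups did not overlap, though they lay close, with a mean of 5.09 ± 0.311 FPKM in siCircGigyf2 cells, against 6.08 ± 0.459 FPKM in siNC cells, a ratio of 0.838 and a log2 difference of -0.22 (SE 0.067). It was no longer called without siCircGigyf2 replicate 1 (-0.22), siCircGigyf2 replicate 3 (-0.18), siNC replicate 1 (-0.22) or siNC replicate 3 (-0.17), nor with all genes kept whatever their level. GENCODE M21, but not RefSeq, places a second gene, Gm42674, over S100a4 on the same strand, so its fragments may be shared.

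S100a11, a partner of annexin A1, varied more within the siCircGigyf2 libraries than between the groups. It had 2.06, 0.606 and 3.02 FPKM in the siCircGigyf2 libraries against 1.51, 1.48 and 0.804 FPKM in the siNC libraries. Both the lowest and the highest values were siCircGigyf2 libraries, and the groups overlapped. The log2 difference was 0.27 (SE 0.29) with a 95% interval from -0.39 to 0.93. It was -0.015 without siCircGigyf2 replicate 3, 0.12 without siNC replicate 3, 0.65 without siCircGigyf2 replicate 2, where it was called, and 0.18 to 0.35 without any other library. The RefSeq gene table also lists a pseudogene copy, S100a11-ps, and whether it shares fragments with S100a11 was not tested.

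**Figure D3:**
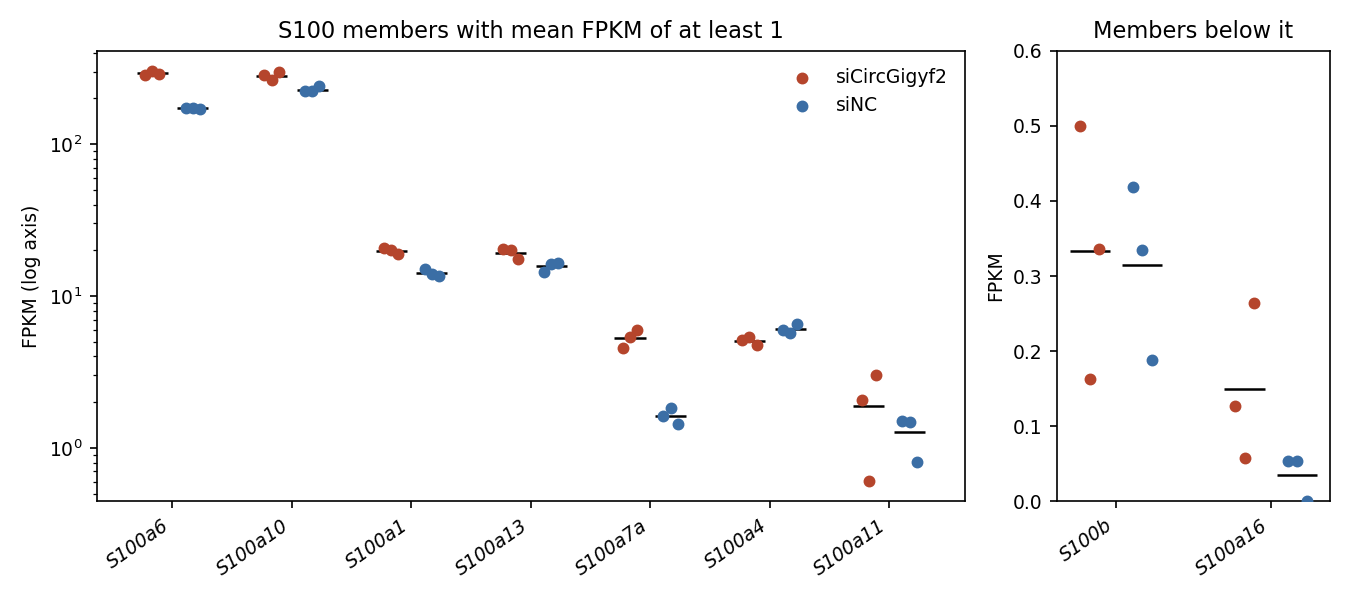
FPKM of the 9 S100 members in each library (points) with the group mean (line), siCircGigyf2 left of siNC, on a log axis for the 7 members with a mean of at least 1 FPKM and on a linear axis for S100b and S100a16. The groups separate for S100a6, S100a10, S100a1, S100a13, S100a7a and S100a4, and overlap for S100a11 and S100b. S100a16 is at or near 0 in the siNC libraries.

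S100b and S100a16 were below the filter and were not tested. S100b had 0.500, 0.163 and 0.336 FPKM in the siCircGigyf2 libraries against 0.419, 0.335 and 0.189 FPKM in the siNC libraries, and the groups overlapped. S100a16 had 0.127, 0.0579 and 0.265 FPKM in the siCircGigyf2 libraries against 0.0532, 0.0538 and 0 FPKM in the siNC libraries. Within a tolerance of 0.08 those values read as whole multiples of 1 step per library, namely 2, 1 and 4 fragments in the siCircGigyf2 libraries against 1, 1 and 0 in the siNC libraries. With 7 against 2 fragments in all, a difference in S100a16 was not resolved at this depth.

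The 8 other family genes in the table summed to 1.43, 0.999 and 0.611 FPKM in the siCircGigyf2 libraries, against 0.492, 0.734 and 1.11 FPKM in the siNC libraries. That sum was below every tested member but S100a11, which had 0.606 FPKM in siCircGigyf2 replicate 2 and 0.804 FPKM in siNC replicate 3. Taken singly, these genes were near S100b and S100a16 or at 0. S100a14 read as 5, 7 and 2 fragments in the siCircGigyf2 libraries and 2, 2 and 4 in the siNC libraries. S100a3 averaged 0.277 ± 0.249 FPKM with the circGigyf2 siRNA, against 0.398 ± 0.111 FPKM with the control (SD, n = 3 each). S100a8 averaged 0.270 ± 0.235 FPKM with the circGigyf2 siRNA, against 0.239 ± 0.208 FPKM with the control. S100a5 was listed above 0 in siCircGigyf2 replicate 1 alone and S100g in siCircGigyf2 replicate 2 alone. S100a2, S100a9 and S100z were at 0 in all 6 libraries. S100pbp, which encodes an S100P-binding protein and is no family member, averaged 25.7 ± 0.0366 FPKM with the circGigyf2 siRNA, against 28.2 ± 1.27 FPKM with the control. It fell by 0.13 on the log2 scale (limma adjusted p = 0.0306), a call lost when any library but siNC replicate 3 was left out (adjusted p from 0.0608 to 0.111).

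**Figure D4:**
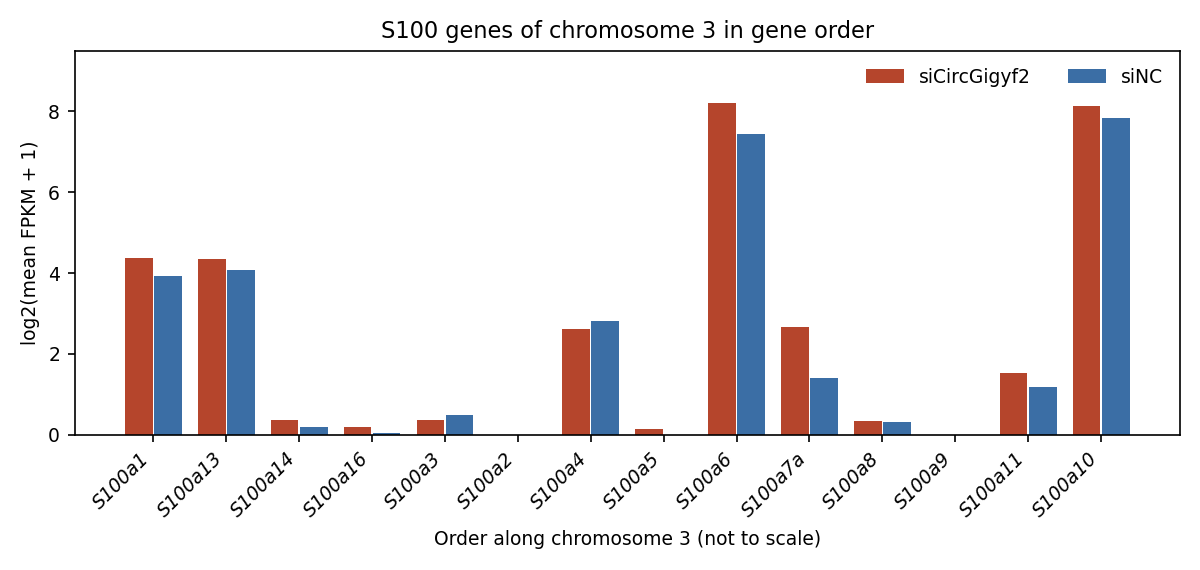
Mean level, as log2(mean FPKM + 1), of the S100 genes of chromosome 3 in their order along it (not to scale), siCircGigyf2 left of siNC. The expressed genes S100a1, S100a13, S100a4, S100a6, S100a7a, S100a11 and S100a10 stand between genes at or near 0, and S100a4 is the expressed gene with the lower siCircGigyf2 bar.

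Along chromosome 3, genes at or near 0 lay between the expressed members. S100a6 and S100a7a are next to each other in the row, and S100a4, lower in the siCircGigyf2 libraries, is parted from S100a6 by S100a5. The FPKM ratio of S100a4 to S100a6 was 0.0179, 0.0178 and 0.0163 in the siCircGigyf2 libraries, against 0.0346, 0.0329 and 0.0384 in the siNC libraries. Of the 5 nearest tested genes outside the family, Chtop, an RNA export factor at one end of the row, fell by 0.27 (24.8 ± 1.06 FPKM in siCircGigyf2 cells, against 30.1 ± 1.77 FPKM in siNC cells, limma adjusted p = 0.00302). Prr9 within the row and Them4 at its far end had log2 differences of -0.093 and -0.13 (adjusted p = 0.560 and 0.477). Beside S100b, the arginine methyltransferase gene Prmt2 rose by 0.32 (adjusted p = 0.00364). Dip2a, which GENCODE but not RefSeq places over S100b on the opposite strand, fell by 0.38 (adjusted p = 0.000488).

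The levels of genes whose products act with S100 proteins were set beside the members. That list and the EF-hand list below were chosen with earlier results of these data known. Their counts and adjusted p-values are therefore a description. Of 29 such genes, 26 were tested and limma called 13 at an adjusted p of 0.05, beside 38.2% of all tested genes, and the count was 9 in several alternative settings. With the circGigyf2 siRNA 9 were higher and 4 lower. The median log2 difference of the 26 was 0.073, against 0.00035 over all tested genes. Ahnak, a giant scaffold protein held at the membrane by S100a10 and annexin A2, had 132.7, 135.1 and 133.0 FPKM in the siCircGigyf2 libraries against 86.5, 83.1 and 84.9 FPKM in the siNC libraries. The groups were far apart, and Ahnak rose by 0.65 on the log2 scale (SE 0.028, adjusted p = 3.91e-06). Syt1, a synaptic vesicle calcium sensor that joins S100a13 in Fgf1 export, rose by 0.30 to 130 ± 4.80 FPKM, against 106 ± 1.54 FPKM in the siNC libraries (adjusted p = 0.000206).

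The annexin genes that passed did so narrowly. Anxa2 averaged 446 ± 19.6 FPKM in the siCircGigyf2 libraries and 411 ± 11.5 FPKM in the siNC libraries, a log2 rise of 0.12 (limma adjusted p = 0.044). That call was lost after quantile normalization (0.033, adjusted p = 0.450), with all genes kept whatever their level (adjusted p = 0.088), and on leaving out siCircGigyf2 replicate 1 (0.081, adjusted p = 0.132), siCircGigyf2 replicate 2 (0.12, adjusted p = 0.0593), siNC replicate 1 (0.10, adjusted p = 0.136) or siNC replicate 2 (0.10, adjusted p = 0.112). The FPKM ratio of S100a10 to Anxa2 was 0.609, 0.603 and 0.693 in the siCircGigyf2 libraries, against 0.549, 0.551 and 0.565 in the siNC libraries, without overlap. Anxa11, a partner of S100a6, rose by 0.27 (adjusted p = 0.0473), a call lost with all genes kept (adjusted p = 0.0927) and without any library but siNC replicate 1 (adjusted p from 0.0764 to 0.148). Anxa1 was not tested, at 0.117 ± 0.0526 FPKM with the circGigyf2 siRNA, against 0.0889 ± 0.0244 FPKM with the control. Cacybp had a log2 difference of 0.073 (adjusted p = 0.192) and Ager, the receptor for secreted S100 proteins, one of -0.16 (adjusted p = 0.358).

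The 4 partner genes called lower were Myh9, Iqgap1, Asic1 and Stub1. Myh9, the nonmuscle myosin heavy chain that S100a4 binds, had 73.3, 79.0 and 76.2 FPKM in the siCircGigyf2 libraries against 102.4, 102.5 and 104.5 FPKM in the siNC libraries. The groups did not overlap, and Myh9 fell by 0.43 (SE 0.033, limma adjusted p = 4.11e-05). Iqgap1, a scaffold protein bound by S100b, fell by 0.21 to 48.5 ± 0.611 FPKM, against 56.4 ± 0.525 FPKM in the siNC libraries (adjusted p = 0.000531). Asic1, an acid-sensing channel that S100a10 binds, fell by 0.17 (adjusted p = 0.00865). Stub1, a chaperone-linked ubiquitin ligase, fell by 0.14 (adjusted p = 0.0135), a call lost without siNC replicate 3 (adjusted p = 0.0549). Among the others that rose were Plaur, the urokinase receptor, by 0.27 (adjusted p = 0.00785) and the lysosomal protease gene Ctsd by 0.30 (adjusted p = 0.000499), or 0.19 after quantile normalization. No direct binding of Ctsd to an S100 protein is assumed here.

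**Figure D5:**
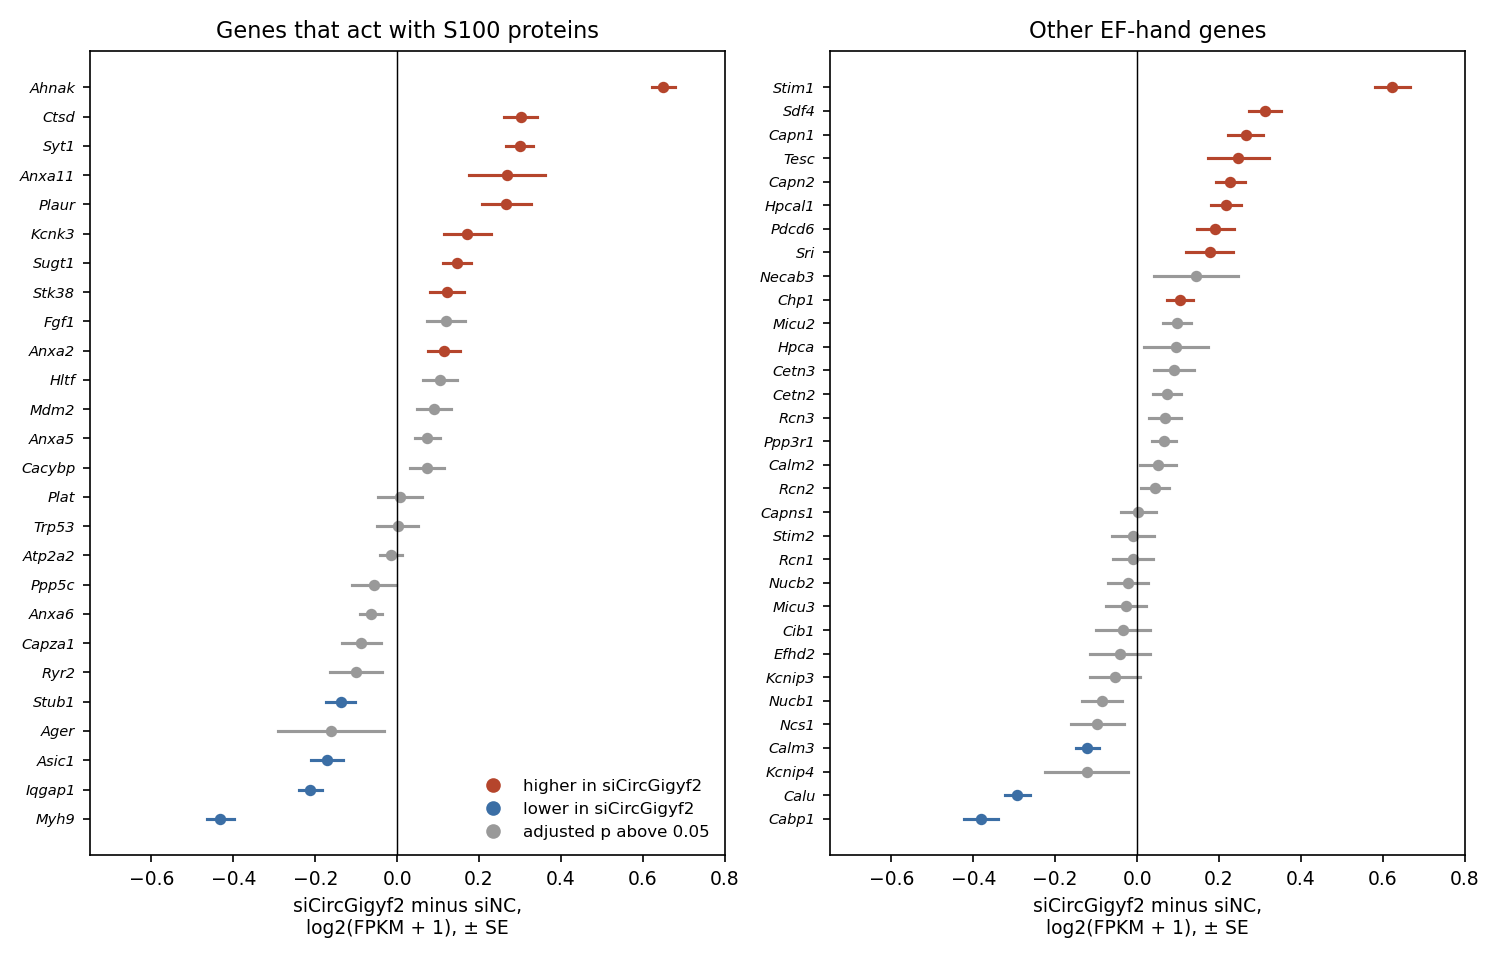
Log2(FPKM + 1) difference (siCircGigyf2 minus siNC) with its SE for the 26 tested genes that act with S100 proteins (left) and for tested genes of other EF-hand families (right). Red genes were higher and blue genes lower at a limma adjusted p of 0.05, with Ahnak at 0.65 and Stim1 at 0.62 at the top and Myh9 at -0.43 and Cabp1 at -0.38 at the bottom.

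The EF-hand genes outside the S100 family were called, both directions together, at the share of all tested genes. Of 49 listed, 34 were tested and 13 passed, or 38.2%, with a median log2 difference of 0.059. The 13 were 10 higher and 3 lower, whereas of all tested genes 19.5% were higher and 18.7% lower. Stim1, the calcium sensor of the endoplasmic reticulum that opens store-operated channels, had 20.9, 21.9 and 21.0 FPKM in the siCircGigyf2 libraries against 14.1, 12.9 and 13.4 FPKM in the siNC libraries. The groups did not overlap, and Stim1 rose by 0.62 (SE 0.044, limma adjusted p = 2.9e-05). Sdf4, a Golgi calcium-binding protein, rose by 0.31 (adjusted p = 0.000414) and the calpain gene Capn2 by 0.23 (adjusted p = 0.00120). Cabp1, a neuronal relative of calmodulin, fell by 0.38, Calu, a calcium-binding protein of the secretory pathway, by 0.29, and the calmodulin gene Calm3 by 0.12 (adjusted p from 0.000165 to 0.00850).

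The 7 bases GCCTACA, a site that an earlier look at these same differences picked out, occurred in the 3' UTR of 1 of the 9 members, S100b, and in 7.25% of 10560 tested genes searched. S100b, which was not itself tested, has the longest 3' UTR of the 9 members, at 1091 bases. The share was not matched for 3' UTR length. By Pearson correlation of log2(FPKM + 1) over the 6 libraries, the tested genes most like S100a7a were Ddx21 (r = 0.998), Gm4980 (0.996) and Ube2r2 (0.996). With 6 libraries in 2 groups such values follow the group difference, and they are a description only. Ddx21, an RNA helicase gene, averaged 62.7 ± 1.06 FPKM in the siCircGigyf2 libraries and 52.5 ± 1.18 FPKM in the siNC libraries, a far smaller proportional difference than that of S100a7a.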

How the data were processed

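RNA-seq libraries of CAD cells, 3 siCircGigyf2 and 3 siNC, were grouped by their treatment labels, and columns were matched to samples by title. The authors deposited 1 table of FPKM per gene symbol. The genome build was mm9, per the submitters' processing notes. The aligner, the quantifier, the annotation and how strand was handled are not given in the sources used here. The labels do not say whether the replicates came from separate cultures. Every p-value therefore reflects the scatter among these 6 libraries alone, and that scatter may be technical. At most 0.0068% of values were identical between any 2 libraries.

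Genes with a mean of at least 1 FPKM entered a limma fit (version 3.58.1, R 4.3.3) of log2(FPKM + 1), 2-sided, with 2 groups, no covariates and an intensity trend in the empirical Bayes step, with Benjamini-Hochberg adjustment over all genes tested and a threshold of 0.05. The fit was tested on simulated data. The members and gene lists were chosen with earlier results of these data known. Named genes were all members, other S100 entries, the 4 smallest adjusted p in each direction of each list, 5 direct partners, called neighbours, Gigyf2, cell type markers and the 3 genes most like S100a7a. Some genes of these lists are counted but not reported here by name. Promoters came from RefSeq (GRCm38.p6) and 3' UTRs from the longest coding transcripts of GENCODE M21, both joined by symbol. Alternatives were a pseudocount of 0.1, no filter, a filter of 5 FPKM, median-of-ratios scaling, quantile normalization, the replicate number as a block and leaving out each library.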

Additional observations from a re-analysis of the deposited data

How the results depend on the processing

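Over 6 alternative settings and 6 fits with a library left out, the count of members called stayed between 5 and 7 (6 as reported), that of partner genes between 9 and 13 (13), that of other EF-hand genes between 10 and 14 (13), that of neighbouring genes at 3, and that of all genes between 3521 and 4423 (4367). S100a1, S100a6, S100a7a, S100a10 and S100a13 were called in every fit that tested them and none changed sign. Those fits reuse the values that were known when the members were chosen, so nothing is read from the members' calls. S100a7a was not tested with a filter of 5 FPKM. Scaling moved the median of all genes by less than 0.01 on the log2 scale. The cause of the lost calls of S100a4, Anxa2, Anxa11, Stub1, S100pbp and Gigyf2 was not tested.

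Across genes, the deviations of same-numbered libraries correlated at r = 0.163 for replicate 1, the highest of the 9 pairs, but at -0.0208 and 0.00253 for replicates 2 and 3. Since not every pair was above 0.1, the numbers were not taken to pair the samples. The best match of siCircGigyf2 replicate 2 was siNC replicate 3 (0.131). With a replicate block 3973 genes, 5 members, 9 partner genes and 11 other EF-hand genes were called. S100a4, Anxa2 (adjusted p = 0.0701), Anxa11 (0.0749) and Gigyf2 (0.0598) were not.

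S100a11, S100b and S100a16 were the lowest members. The scatter of S100a11 between libraries exceeded its difference, and whether depth has a part in that was not tested. FPKM carry no absolute depth, so counting error has no interval here.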
